A study of Arabidopsis thaliana with 6 samples.

Results

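The 47 genes described here encode the DNA replication machinery of Arabidopsis thaliana, the E2F transcription factors with their partner RBR1, the histone chaperone CAF-1, and the histones H4 and H3.1 that are made in S phase. They were taken by gene identifier from a list of 10 classes, 34 genes outside the histones and 13 histone genes, out of 30424 genes in the deposited tables. The choice went by gene function and used no measured value directly, but earlier results of these data were known when it was made. All 47 were found in the tables and passed the filter on low counts, which kept 16737 genes. Their RNA was measured in the dissected root meristem after 1 h of RGF1 or of mock treatment, with 3 RNA-seq libraries in each group.

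All seedlings were Col-0 plants, homozygous for a HYP2-GFP transgene in a wild-type background, and 6 days old, so that both groups carried the reporter. The Mock group received water and the RGF1 group 100 nM of RGF1 peptide, both in liquid MS medium. RGF1 is a peptide hormone of the root tip that cells sense through receptor kinases. The meristematic zone was cut by its GFP fluorescence, each RNA was pooled from 20 root sections, and 50 ng of it was amplified before sequencing. The labels name 3 RNA extractions per treatment and are silent on whether plates or days differed, so p-values reflect how far these extractions varied, a spread that may be technical. In such bulk tissue, fewer cells in S phase and less RNA per cell cannot be told apart.

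Before S phase, the origin recognition complex (ORC) marks replication origins, and CDC6 and CDT1 load the MCM ring helicase there. CDC45 joins the helicase when it fires, DNA polymerases alpha, delta and epsilon copy the strands, PCNA clamps polymerases onto DNA, and ribonucleotide reductase supplies the deoxynucleotides. E2F factors bind promoters of many of these genes and are restrained by RBR1, the plant retinoblastoma protein. CAF-1 places new H3.1 and H4 behind the fork, and the plant histone messages are polyadenylated.

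After 1 h of RGF1, none of the 47 genes passed the test in either direction. The class medians of the log2 fold change (RGF1 against Mock) ran from -0.28 in the licensing factors to 0.53 in ribonucleotide reductase, with H4 at -0.00 and H3.1 at 0.04. The edgeR test (quasi-likelihood, adjusted p below 0.05 over all tested genes) called 78 genes higher, 0.466% of the 16737, and 5 lower, 0.0299%. Among the 47 genes it called 0, and 1, the large subunit of ribonucleotide reductase RNR1, had an unadjusted p below 0.05, a share set against 7.76% of all tested genes. Limma voom and DESeq2 also called 0 of the 47, beside 69 and 291 of the 16737 tested genes. Their unadjusted p was below 0.05 for 3 and 2 of the 47, beside 1423 and 1510 of the 16737. With the replicate number as a block edgeR called 208 genes higher (1.24%) and 94 lower (0.562%), again 0 of the 47. With that block 4 of the 47, against 12.6% of all tested genes, had an unadjusted p below 0.05. These were RNR1, TSO2, PCNA1 and CDT1B, a group named after its values were seen.

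Single log2 fold changes were positive for 27 of the 47 genes and negative for 20, with a median of 0.04 beside -0.01 for all tested genes. They ranged from -1.01 for CDT1B to 1.04 for ORC2. In 39 of the 47 genes (83.0%) the value was smaller than 0.5 in either direction, as in 65.8% of all tested genes. The 95% interval lay within a 2-fold difference for 24 of the 47 (51.1%) and for 31.3% of all tested genes. The median standard error was 0.32 for the 47 and 0.42 for all tested genes. For the other 23 genes of the list a 2-fold difference was inside the interval, and the test found 14.6% of simulated 2-fold changes, so differences of that size were mostly not detectable.

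**Figure D1:**
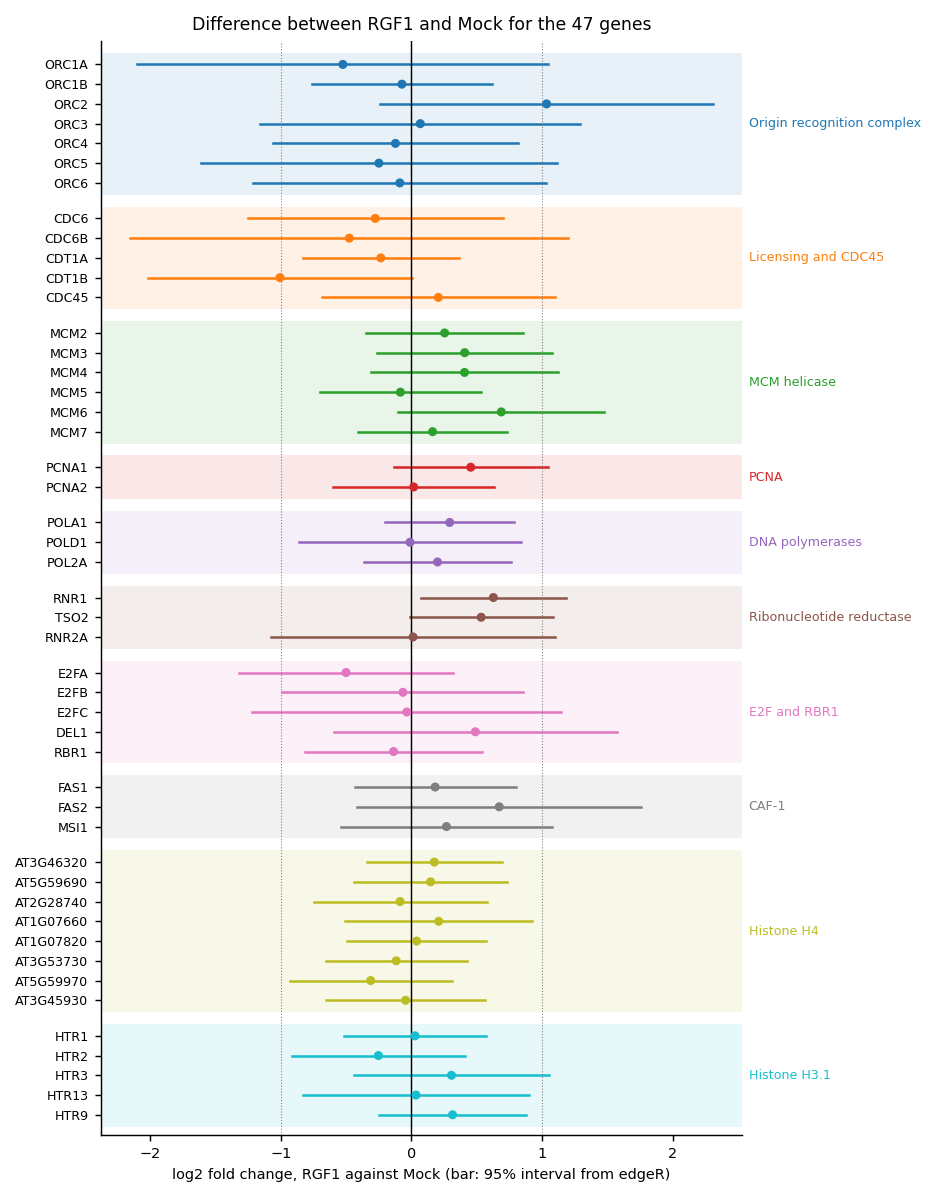
Log2 fold change, RGF1 against Mock, of the 47 genes by class, with 95% intervals from edgeR on a linear axis. The interval of RNR1 (0.07 to 1.18) does not reach 0, and the intervals of the low genes of the origin recognition complex are wide.

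The 3 RGF1 libraries lay above the 3 Mock libraries for 5 of the 47 genes (10.6%; 7.30% of all tested genes), namely ORC2, RNR1, TSO2, POLA1 and the histone H4 gene AT1G07660. They lay below them for 1 (2.13%; 6.18% of all), the licensing factor CDT1B. Taken by equal replicate number, RGF1 was higher in all 3 pairs for 9 genes (19.1%; 17.4% of all) and lower in all 3 for 7 (14.9%; 17.9% of all). These shares were near those of all tested genes, and the smallest of them, that below Mock, rested on 1 gene.

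The levels spanned a wide range, which the classes ordered. Levels here are CPM (counts scaled by TMM to a common library size) divided by exon length in kb, and a class level is the median over its genes, as mean ± SD over the 3 Mock libraries. Histone H4 stood highest at 133 ± 16.3 CPM per kb, followed by H3.1 at 70.1 ± 18.4 and PCNA at 63.9 ± 12.0. Ribonucleotide reductase followed at 32.1 ± 5.00, the MCM helicase at 20.8 ± 2.87 and CAF-1 at 18.8 ± 4.74 CPM per kb. E2F and RBR1 stood at 11.8 ± 3.95, the polymerases at 9.76 ± 1.04, licensing factors with CDC45 at 9.197 ± 1.69, and ORC lowest at 3.87 ± 0.221 CPM per kb. H3.1 and PCNA, MCM and CAF-1, and the 3 classes from E2F to licensing differed by less than their spread from their neighbours in that order. The highest single gene was the H4 gene AT3G46320 at 246 ± 34.2 CPM per kb (98.1st percentile of tested genes in Mock), and the lowest was CDC6B (AT1G07270) at 2.59 ± 1.22 (13.4th percentile).

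**Figure D2:**
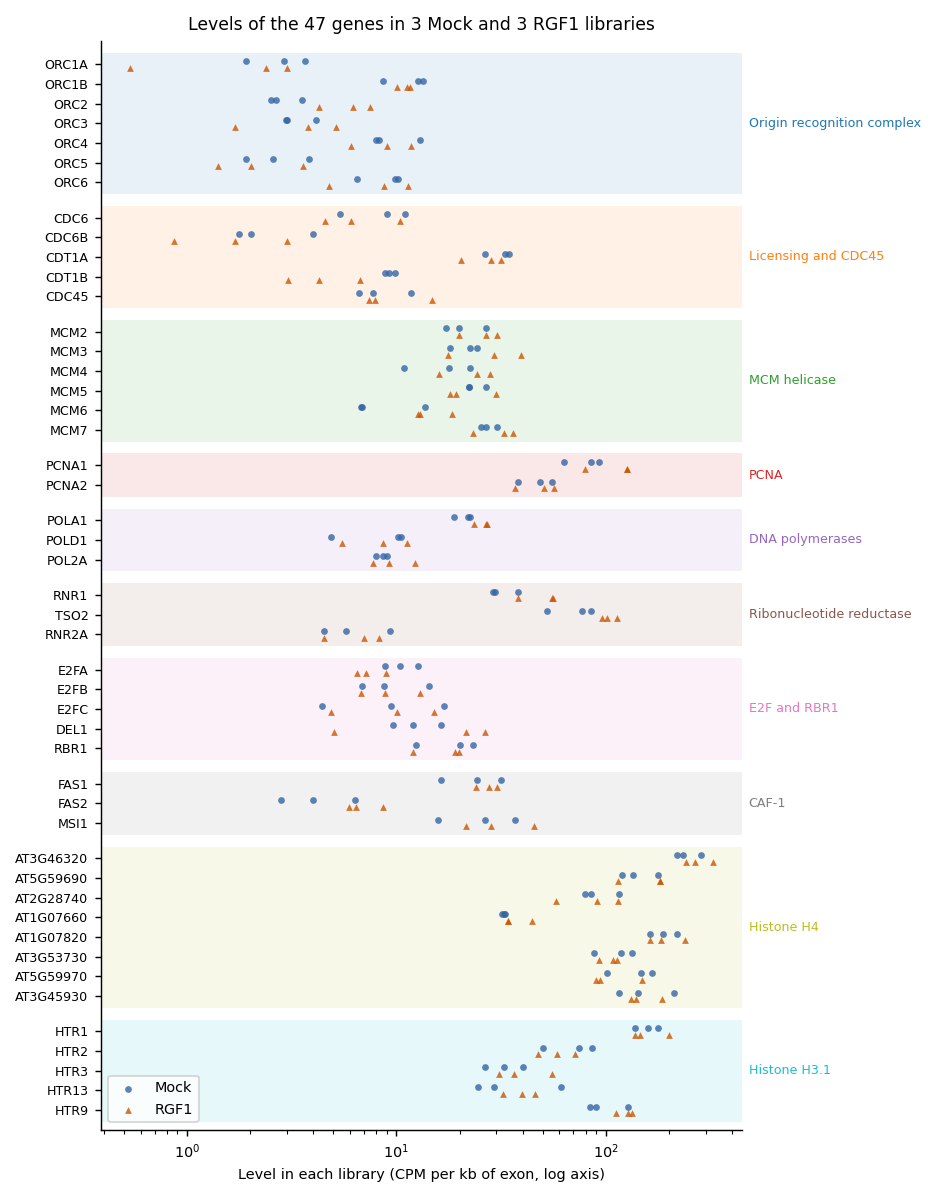
Level of each of the 47 genes in each library in CPM per kb of exon on a log axis, circles for Mock and triangles for RGF1. The H4 gene AT3G46320 lies near 246 CPM per kb and CDC6B near 2.59, and circles and triangles are separate for only 6 genes.

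Libraries held 5421243 to 9495012 counts, and 3 counts, taken as a floor for counting error only, amounted to 0.313 to 0.565 CPM. No pair of libraries agreed within sampling noise. Mock replicate 1 was the lowest Mock library for 28 of the 47 genes (59.6%; 34.2% of all tested genes), including 10 of the 13 histone genes, and RGF1 replicate 1 was the lowest RGF1 library for 26 (55.3%; 33.6% of all). Of 7 root meristem markers 6 were tested, and their summed level was 278 to 380 CPM in Mock and 481 to 518 CPM in RGF1, of which AIL6, a PLETHORA-family factor, made up 126 ± 9.00 and 271 ± 18.9 CPM (edgeR adjusted p = 0.0533, and 0.00295 with the block). WOX5, the quiescent centre marker, was at 0 counts in 5 of the 6 libraries. Summed photosynthetic markers (10 of 10 tested; 0 called by edgeR, DESeq2 or voom; unadjusted p below 0.05 for 0, 1 and 2) were at 1214, 234 and 619 CPM in Mock and 409, 50.2 and 657 CPM in RGF1, with Mock replicate 1 highest. Their log2 fold changes were negative for 10 of 10, and with the replicate block edgeR called 0 of them but 9 had an unadjusted p below 0.05 (12.6% of all tested genes), with a median of -1.19 and 5 lower in all 3 pairs. Summed markers of root hair (8.62 to 47.5 CPM in Mock, 11.8 to 35.2 in RGF1) and root cap (5.04 to 23.5 and 2.50 to 26.7) overlapped. Those of xylem vessel were lower in RGF1 (13.9 to 16.01 and 4.90 to 11.0). Of 5 xylem vessel markers 3 were tested, and edgeR, DESeq2 and voom called 0. Among them XCP1 held 123 counts in Mock and 26 in RGF1, and IRX3 138 and 53. The log2 fold change of CESA4 was -0.02. The part of these marker differences in the results below was not tested.

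The origin recognition complex was the lowest class, and 5 of its 7 genes had a negative log2 fold change. Its class level, the median over the 7 genes, was nevertheless wholly higher in RGF1, at 4.25 to 6.18 CPM per kb against 3.67 to 4.11 in Mock (ratio of means 1.34, no test), while its summed CPM overlapped. ORC2 (AT2G37560, chr2:15758601-15761262) had the largest positive value of the 47. It was at 5.46, 4.14 and 3.92 CPM in Mock replicates 1 to 3 and at 9.58, 11.6 and 6.59 CPM in RGF1. Every RGF1 library was above every Mock library, but the gene rested on 113 counts in Mock and 206 in RGF1, and its log2 fold change of 1.04 ± 0.59 (SE) had an edgeR adjusted p of 0.738. ORC1A and ORC1B encode alternative large subunits of the complex. ORC1B (AT4G12620), the highest of the class at 11.5 ± 2.58 CPM per kb in Mock, was at 24.4, 35.8 and 38.1 CPM in Mock and 32.8, 28.6 and 32.0 CPM in RGF1. The groups overlapped fully.

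ORC1A (AT4G14700) was at 4.82, 9.29 and 7.37 CPM in Mock and 1.35, 7.63 and 6.03 CPM in RGF1, lower in each pair of equal number. Its difference of -0.52 ± 0.73 had an edgeR adjusted p of 0.936. ORC5 (AT4G29910), the lowest of the class at 2.78 ± 0.976 CPM per kb in Mock, was at 10.07, 5.04 and 6.74 CPM in Mock and 9.38, 3.67 and 5.27 CPM in RGF1. It too was lower in each pair, by amounts smaller than the spread within either group. ORC3, ORC4 and ORC6 had log2 fold changes between -0.12 and 0.07.

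The licensing factors were lower in sum after RGF1, with 4 of 5 genes negative and none past the test. CDT1B (AT3G54710, chr3:20251812-20254323), one of the pair of CDT1 genes that help load the helicase, was at 18.0, 16.9 and 16.2 CPM in Mock and 5.52, 7.78 and 12.2 CPM in RGF1. The Mock libraries lay close together and all above the RGF1 libraries, which spread over more than a 2-fold range. The log2 fold change was -1.01 ± 0.47, from 422 counts in Mock and 171 in RGF1, with an edgeR adjusted p of 0.646 (0.367 with the replicate block). CDT1A (AT2G31270), the more abundant copy at 31.4 ± 4.38 CPM per kb in Mock, was at 72.2, 57.4 and 75.3 CPM in Mock and 44.5, 61.4 and 68.6 CPM in RGF1, with overlap.

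CDC6B (AT1G07270), a paralog of CDC6, was at 3.96, 3.47 and 7.84 CPM in Mock and 3.33, 5.87 and 1.70 CPM in RGF1. CDC6 (AT2G29680) had a log2 fold change of -0.28, and CDC45 (AT3G25100), the helicase cofactor, one of 0.21. Summed over the 5 genes, the Mock libraries held 124, 130 and 135 CPM and the RGF1 libraries 98.0, 107 and 124 CPM. The ratio of the means was 0.843, and the sums did not overlap, by less than 1 CPM between the lowest Mock and the highest RGF1 library. CDT1A and CDT1B together make up most of that sum.

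In the MCM helicase, whose 6 subunits form one ring, 5 of 6 log2 fold changes were positive, with a median of 0.33. MCM6 (AT5G44635, chr5:18006212-18010667), the lowest subunit at 9.09 ± 3.99 CPM per kb in Mock, was at 40.0, 19.7 and 19.9 CPM in Mock and 36.8, 54.0 and 37.7 CPM in RGF1. Mock replicate 1 lay inside the RGF1 range and the other Mock libraries well below it. The log2 fold change was 0.69 ± 0.36 (edgeR adjusted p = 0.707), and 1.11 (edgeR adjusted p = 0.385) without Mock replicate 1. MCM7 (AT4G02060, known as PROLIFERA), the highest subunit at 27.4 ± 2.53 CPM per kb, was at 67.0, 70.7 and 80.0 CPM in Mock and 61.2, 95.7 and 86.8 CPM in RGF1. These overlapped.

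Subunits other than MCM6 lay between 17.1 and 27.4 CPM per kb in Mock. MCM2, MCM3 and MCM4 had log2 fold changes of 0.25, 0.41 and 0.41, and MCM5 (AT2G07690) one of -0.08. MCM2 and MCM4 were higher after RGF1 in all 3 pairs of equal number. For MCM3 (AT5G46280) the RGF1 libraries ran from 53.3 to 120 CPM around Mock libraries of 54.9 to 73.6 CPM. Over the class the summed level was 346 ± 34.0 CPM in Mock and 418 ± 109 CPM in RGF1, where RGF1 replicate 1 stood at 308 CPM and replicate 2 at 526 CPM.

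PCNA1 (AT1G07370) and PCNA2 (AT2G29570) encode the sliding clamp. PCNA1, at 80.5 ± 15.4 CPM per kb in Mock, was at 71.7, 96.1 and 105 CPM in Mock and 89.6, 143 and 142 CPM in RGF1. It was higher in each pair of equal number, but RGF1 replicate 1 lay among the Mock libraries, and its 0.45 ± 0.27 had an edgeR adjusted p of 0.767 (0.334 with the block). PCNA2, at 47.3 ± 8.73 CPM per kb, was at 45.0, 57.2 and 65.5 CPM in Mock and 43.3, 66.8 and 59.7 CPM in RGF1, a log2 fold change of 0.02. It overlaps ENOC on the opposite strand by 279 bases, and whether the counting used strand is not given in the sources used here.

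Among the polymerases, POLA1 (AT5G67100, chr5:26776953-26786431), the catalytic subunit of polymerase alpha known as ICU2, was at 130, 126 and 109 CPM in Mock and 155, 157 and 136 CPM in RGF1. All 3 RGF1 libraries lay above the Mock libraries. The log2 fold change was small, 0.29 ± 0.23, with an edgeR adjusted p of 0.847 and a 95% interval of -0.20 to 0.79. POL2A (AT1G08260, known as TILTED1), the polymerase epsilon subunit and the lowest of the class at 8.51 ± 0.499 CPM per kb, was at 79.0, 75.5 and 70.3 CPM in Mock and 108, 81.2 and 68.4 CPM in RGF1. POLD1 (AT5G63960), the catalytic subunit of polymerase delta, had a log2 fold change of -0.01.

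Ribonucleotide reductase held the smallest p of the 47 genes. RNR1 (AT2G21790, chr2:9293261-9297861), its large subunit, was at 87.0, 113.6 and 88.3 CPM in Mock and 114.1, 165 and 168 CPM in RGF1. The highest Mock and the lowest RGF1 library lay less than 1 CPM apart, and the other RGF1 libraries well above. The log2 fold change was 0.63 ± 0.26, with a 95% interval of 0.07 to 1.18, an unadjusted p of 0.0291 and an edgeR adjusted p of 0.552. With the replicate block the edgeR adjusted p was 0.156, the smallest of any of the 47 genes in any fit.

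TSO2 (AT3G27060, chr3:9979841-9981620), the small subunit known for its S-phase expression, was the highest of the class at 71.6 ± 17.3 CPM per kb in Mock. It was at 88.2, 131 and 144 CPM in Mock and 191, 163 and 172 CPM in RGF1. All RGF1 libraries were above all Mock libraries, and Mock replicate 1 was the lowest of the 6. The log2 fold change of 0.53 ± 0.25 had an edgeR adjusted p of 0.650 (0.251 with the block). RNR2A (AT3G23580), an alternative small subunit at 6.51 ± 2.47 CPM per kb, was at 7.61, 15.7 and 9.72 CPM in Mock and 11.8, 7.63 and 13.9 CPM in RGF1. These overlapped fully, with a log2 fold change of 0.01.

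Summed over RNR1, TSO2 and RNR2A, the libraries held 183, 260 and 242 CPM in Mock and 317, 335 and 354 CPM in RGF1. Of the 10 class sums 1, this one, lay wholly higher in RGF1, at 1.47 times the Mock mean, and 1, the licensing sum, lay wholly lower. Single genes lay wholly higher in 7.30% and wholly lower in 6.18% of all tested genes. A sum over a class is another measure, for which no such share is given here. By the class median, ribonucleotide reductase and ORC lay wholly higher in RGF1 and the licensing class wholly lower. Mock replicate 1, the library with the highest photosynthetic sum, was also the lowest in the reductase sum, and its part in the difference was not tested. The other 8 sums overlapped.

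**Figure D3:**
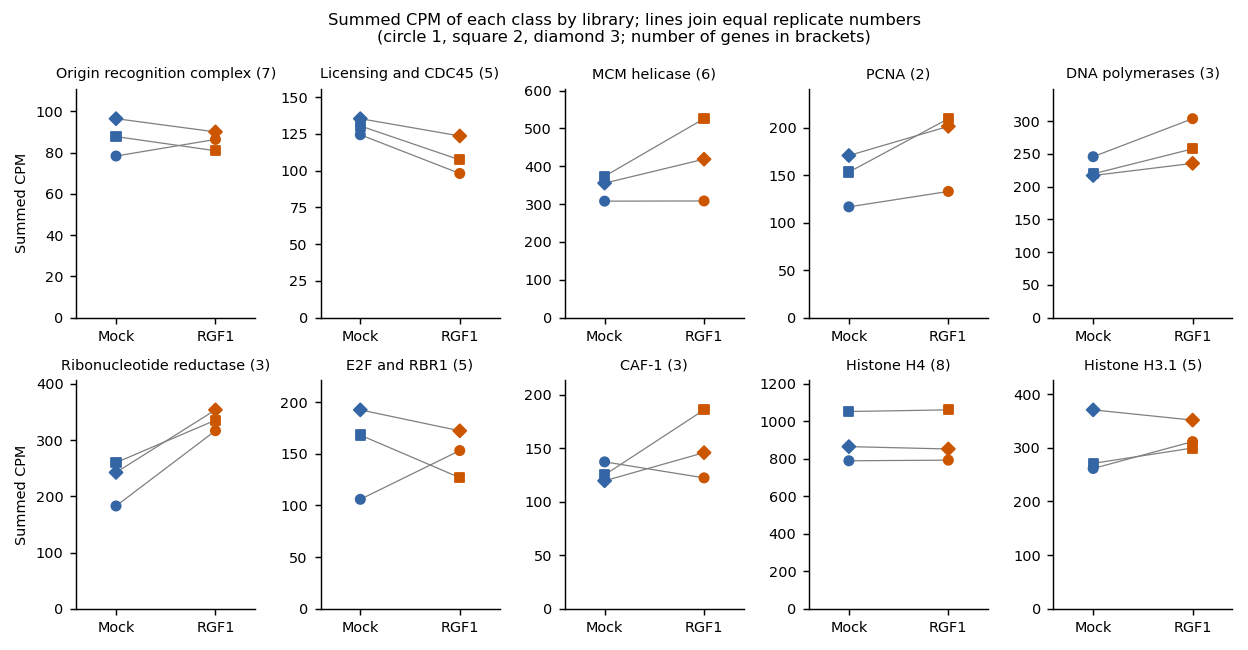
Summed CPM of each class by library on linear axes from 0, with a line joining libraries of equal replicate number. Ribonucleotide reductase runs from 183 to 260 CPM in Mock and from 317 to 354 CPM in RGF1, and histone H4 has nearly level lines.

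Of the E2F family, E2FA (AT2G36010) and E2FB (AT5G22220) are activators, E2FC (AT1G47870) is described as a repressor, and DEL1 (AT3G48160) is an atypical E2F that binds without a DP partner. RBR1 (AT3G12280), the highest of the class at 18.6 ± 5.58 CPM per kb in Mock, was at 47.9, 89.8 and 77.3 CPM in Mock and 45.9, 76.3 and 73.5 CPM in RGF1. It was slightly lower in each pair of equal number, within the spread of each group. E2FB, the lowest at 9.98 ± 3.92 CPM per kb, was at 13.7, 17.6 and 28.9 CPM in Mock and 26.05, 17.6 and 13.6 CPM in RGF1. The ranges nearly coincided.

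E2FA was at 18.5, 21.9 and 26.8 CPM in Mock and 13.6, 15.1 and 18.8 CPM in RGF1, lower in each pair and with an overlap between the highest RGF1 and the lowest Mock library alone. Its log2 fold change of -0.50 ± 0.38 had an edgeR adjusted p of 0.841. DEL1 ranged from 18.3 to 30.9 CPM in Mock and from 9.54 to 50.5 CPM in RGF1. RGF1 replicate 2 was the lowest of all 6 libraries and RGF1 replicate 1 the highest, so that the log2 fold change of 0.49 ± 0.50 had no common direction among libraries. E2FC had a log2 fold change of -0.04.

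The CAF-1 subunits FAS1 (AT1G65470), FAS2 (AT5G64630) and MSI1 (AT5G58230) had log2 fold changes of 0.18, 0.67 and 0.27. MSI1, a WD40 protein shared with other chromatin complexes and the highest at 26.3 ± 10.6 CPM per kb, was at 25.6, 42.9 and 60.1 CPM in Mock and 35.0, 73.5 and 46.1 CPM in RGF1. FAS2, the lowest at 4.38 ± 1.79 CPM per kb, was at 12.1, 5.37 and 7.68 CPM in Mock and 11.4, 16.6 and 12.2 CPM in RGF1. Both overlapped between groups, and FAS2 had an edgeR adjusted p of 0.841.

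Some promoters of the list held short words tied to E2F factors or to histone genes. Genes, E2F words and octamer were all chosen from what is known of replication and histone genes. A higher share than in all promoters is therefore not an independent result. The 250 bases before each annotated start were searched on both strands for 8 E2F words (TTTCCCGC, TTTGGCGC, TTTGCCGC, TTTCGCGC, TTTCCCGG, TTTGGCGG, TTTGCCGG and TTTCGCGG), for the plant histone octamer CGCGGATC and for the mitosis-specific word CNAACGG. An E2F word occurred in 17 of the 47 promoters (36.2%) and in 768 of 27443 promoters of protein-coding genes (2.80%). It was found in 5 of 6 MCM genes, 3 of 7 ORC genes, 3 of 5 licensing genes, 2 of 3 CAF-1 genes, 2 of 8 H4 genes, POLA1 and RBR1. No E2F word was found before PCNA, ribonucleotide reductase or H3.1 genes. The octamer occurred in 2 of 8 H4 and 3 of 5 H3.1 genes, 5 of 47 in all (10.6%), and in 37 of the 27443 promoters (0.135%). CNAACGG occurred in 9 of the 47 (19.1%) and in 4.50% of all promoters. Outside the list, the octamer also stood before 1 of 3 genes of the histone variant H3.3 and 3 of 16 H2A and H2B genes. CNAACGG stood before 1 of 3 and 5 of 16 of these, so neither word was particular to the histone genes of the list. No E2F word overlapped an octamer in these genes, while words on opposite strands overlapped each other before ORC1A and ORC3. A match is a string of letters, not a shown binding site.

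**Figure D4:**
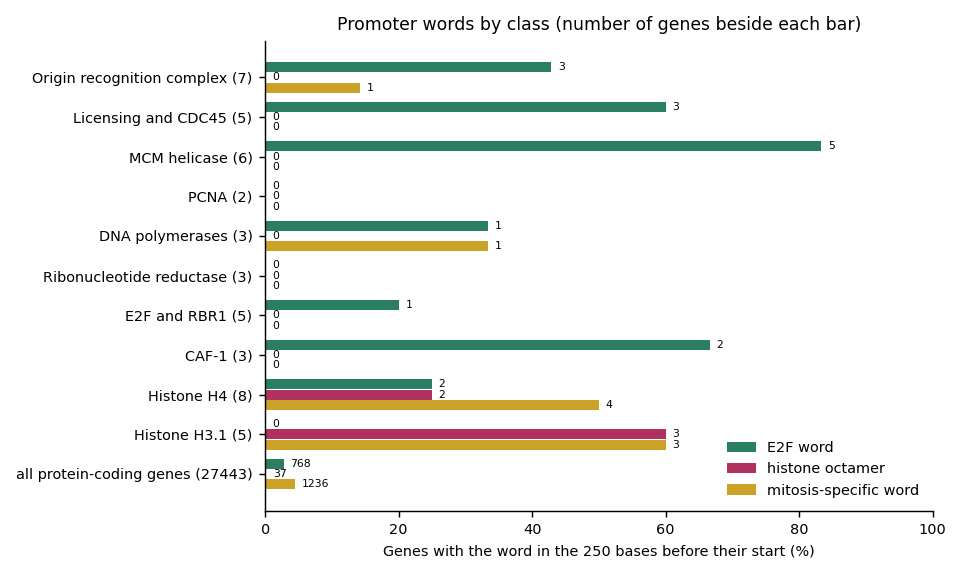
Share of genes in each class (percent, linear axis) with an E2F word, the histone octamer or the mitosis-specific word in the 250 bases before the start, with the number of genes beside each bar. E2F words stand in 5 of 6 MCM promoters and, of the classes drawn, only H4 and H3.1 hold the octamer, beside 2.80% and 0.135% of all protein-coding genes. Not drawn are the H3.3 genes (octamer in 1 of 3) and the H2A and H2B genes (3 of 16).

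The windows below, read from the TAIR10.1 genome, show these words in genes named above: a helicase subunit near the class median and the one with the largest difference, the gene with the largest positive value, the polymerase whose groups did not overlap, and histone genes with the octamer. They are 60 bases long, written 5′ to 3′ on the strand of the gene, with E2F words (on either strand) or octamers in capitals. Their positions are chr1:16970154-16970213 (plus strand) for MCM2, chr5:18010680-18010739 (minus) for MCM6, chr2:15758541-15758600 (plus) for ORC2, chr5:26776876-26776935 (plus) for POLA1, chr1:2972335-2972394 (minus) for HTR2 and chr5:24051377-24051436 (plus) for AT5G59690.
MCM2: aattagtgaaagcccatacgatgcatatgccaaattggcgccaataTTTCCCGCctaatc
MCM6: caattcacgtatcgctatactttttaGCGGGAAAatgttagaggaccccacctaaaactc
ORC2: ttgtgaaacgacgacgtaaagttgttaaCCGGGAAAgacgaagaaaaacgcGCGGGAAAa
POLA1: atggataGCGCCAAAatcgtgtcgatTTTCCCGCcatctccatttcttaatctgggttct
HTR2: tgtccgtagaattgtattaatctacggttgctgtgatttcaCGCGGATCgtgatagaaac
AT5G59690: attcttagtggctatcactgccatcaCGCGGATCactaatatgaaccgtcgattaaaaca
ORC2 and POLA1 each carried 2 E2F words in this window, and HTR2 carried a second octamer further upstream. Of the 6 genes whose groups did not overlap, ORC2 and POLA1 held an E2F word, AT1G07660 the octamer, and RNR1, TSO2 and CDT1B neither.

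Histone H4, paired with H3 at the core of the nucleosome, showed no difference past the test. Its 8 genes together held 790, 1052 and 865 CPM in Mock and 793, 1061 and 852 CPM in RGF1, and the ratio of the means was 1.00. With the copies summed to a single gene, edgeR gave a log2 fold change of -0.00 with a 95% interval of -0.51 to 0.51. AT3G46320, the highest copy per kb, was at 150, 183 and 141 CPM in Mock and 156, 209 and 171 CPM in RGF1. AT1G07660, the lowest at 32.5 ± 0.560 CPM per kb, was at 23.0, 23.8 and 23.5 CPM in Mock and 24.6, 32.1 and 24.7 CPM in RGF1. It separated the groups by less than 1 CPM, with a log2 fold change of 0.21 and an edgeR adjusted p of 0.945. The other 6 copies, between 93.4 and 190 CPM per kb in Mock, overlapped between groups with log2 fold changes from -0.31 (AT5G59970) to 0.15 (AT5G59690).

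Histone H3.1, the replication-coupled H3 that differs from H3.3 in 4 of 136 residues, had 5 genes with 261, 271 and 371 CPM in sum in Mock and 311, 299 and 351 CPM in RGF1. Summed to a single gene, its log2 fold change was 0.09 with an interval of -0.42 to 0.60. HTR1 (AT5G65360), the highest at 158 ± 20.4 CPM per kb, was at 99.2, 115 and 129 CPM in Mock and 99.9, 105 and 145 CPM in RGF1. HTR3 (AT3G27360), the lowest at 33.04 ± 6.81 CPM per kb, was at 22.1, 27.1 and 33.4 CPM in Mock and 30.4, 25.8 and 46.0 CPM in RGF1. Both overlapped, and the remaining log2 fold changes ran from -0.25 (HTR2) to 0.32 (HTR9). Summed per kb, H3.1 (399 ± 80.5 CPM per kb in Mock) was close to the 3 H3.3 genes (417 ± 21.8), within the spread.

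The histone copies encode identical proteins and differ in their codons. All 8 H4 genes gave the same 103 residues, and all 5 H3.1 genes the same 136. Coding identity was 78.8% to 98.1% over the 28 H4 pairs (312 bases) and 80.3% to 89.5% over the 10 H3.1 pairs (411 bases). In their coding part 3 H4 pairs were nearly identical: AT1G07660 with AT1G07820 (6 differences), AT3G46320 with AT3G45930 (8) and AT5G59690 with AT5G59970 (9). The first 60 coding bases show how far the copies can be told apart, at chr3:17020295-17020354 (minus strand), chr3:16883390-16883449 (plus), chr1:2369212-2369271 (plus), chr1:2421687-2421746 (minus) and chr2:12329895-12329954 (minus). Capitals mark bases that differ from the commonest base of the 8 H4 genes. Where bases were equally common, the alphabetically first was taken, so some capitals are as common as the base they differ from.
AT3G46320: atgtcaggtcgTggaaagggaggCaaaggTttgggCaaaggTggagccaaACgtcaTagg
AT3G45930: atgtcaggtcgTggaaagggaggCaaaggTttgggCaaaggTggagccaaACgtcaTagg
AT1G07660: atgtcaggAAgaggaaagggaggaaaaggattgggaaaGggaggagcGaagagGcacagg
AT1G07820: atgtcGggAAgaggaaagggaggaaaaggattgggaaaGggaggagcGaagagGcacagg
AT2G28740: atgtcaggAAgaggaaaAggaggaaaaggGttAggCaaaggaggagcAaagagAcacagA
In this stretch AT3G46320 and AT3G45930 were identical, and the 250 bases before their starts differed at 3 positions and held the same E2F word. AT2G28740 stood apart from both pairs.

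How far such copies could share reads was measured by words of 50 and 100 bases, since read length is not in the labels. Of the 50-base words of the transcript, 28.5% in AT1G07660, 27.9% in AT3G46320, 25.7% in AT3G45930 and 19.4% in AT1G07820 also occurred elsewhere, chiefly in the paired copy. AT5G59690 and AT5G59970 shared 8.48% and 6.94%, and AT2G28740 and AT3G53730 shared 0. With 100-base words the shares were 12.1% in AT3G46320, 11.1% in AT3G45930, 6.10% in AT1G07660 and 4.32% in AT1G07820, and 0 in the other 4 H4 genes. The levels of the first 4 copies are therefore uncertain by reads that could be lost or placed in the other copy, while the sum over copies is not affected by exchange among them. Among H3.1 genes the shares were at most 1.36%. HTR3 is uncertain for another reason, since 35.6% of its 50-base words lie in SDH2-1, a gene on the same strand that overlaps it by 328 bases and held 3387 counts in Mock and 3134 in RGF1.

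The copies contributed unequally to their families, in both groups. AT1G07820 and AT3G46320 made up 20.6% ± 0.574 and 17.6% ± 1.37 of H4 CPM in Mock and 21.1% ± 1.05 and 19.8% ± 0.241 in RGF1 (SD, n = 3). AT1G07660, whose coding part is nearly that of AT1G07820, made up 2.63% ± 0.334 and 3.01% ± 0.105. In H3.1, HTR1 made up 38.4% ± 3.89 in Mock and 36.1% ± 4.69 in RGF1, and HTR9 25.99% ± 0.893 and 30.7% ± 4.87. HTR9 and HTR13 are neighbours on chromosome 5, 577 bases apart on the same strand, yet stood at 99.9 ± 23.5 and 38.3 ± 20.0 CPM per kb in Mock.

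**Figure D5:**
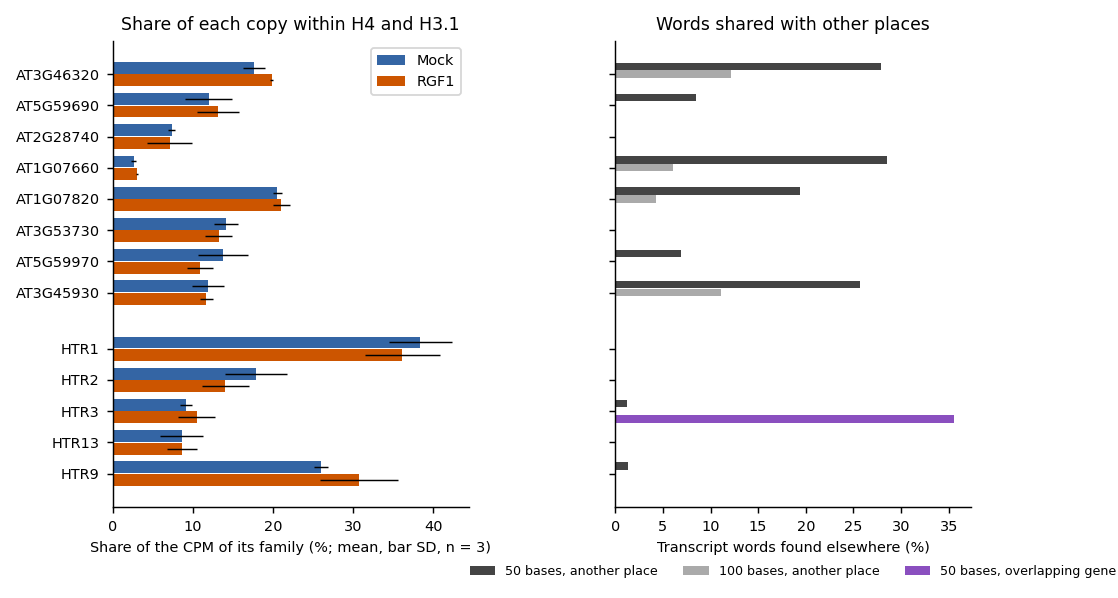
Left, share of each copy in the summed CPM of H4 or H3.1 (percent, mean with SD as bar, n = 3) in Mock and RGF1. Right, percent of 50-base and 100-base transcript words that occur in another place or in an overlapping gene: AT1G07660 and AT3G46320 share 28.5% and 27.9% of their 50-base words, and HTR3 has 35.6% in an overlapping gene.

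Of the 47 genes, 15 overlap another annotated gene, 12 of them on the opposite strand only. For POLA1 the overlapping gene ALC held 5 counts in Mock and 2 in RGF1, against 3041 and 3281 for POLA1. For DEL1 the partner ALDH10A9 held 3009 counts in Mock and 3217 in RGF1, against 572 and 767 for DEL1 itself. ORC1A with ORC1B and CDC6 with CDC6B shared 1.02% to 2.14% of their 50-base words.

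Genes of the same pathway outside the 47 were read from the same fit. Of 32 further fork and origin genes (GINS, replication factor C, RPA, the other polymerase subunits, ligase), edgeR called 0, with or without the block, and DESeq2 and voom also called 0. Unadjusted p below 0.05 was found for 2 by edgeR (7.76% of all tested genes) and 5 with the block (12.6% of all). By DESeq2 and voom it was found for 4 and 4, beside 1510 and 1423 of the 16737 tested genes. The log2 fold change was positive for 29 of the 32, with a median of 0.32 beside -0.01 for all tested genes, and 15 (46.9%; 17.4% of all tested genes) were higher in all 3 pairs of equal number while 0 were lower. The smallest p belonged to POLA3 (AT5G41880), a primase subunit, at 15.97, 7.72 and 13.8 CPM in Mock and 16.9, 32.0 and 25.99 CPM in RGF1, a value of 1.00 ± 0.43 with an edgeR adjusted p of 0.597. PSF1 (AT1G80190), a GINS subunit, was at 29.1, 29.5 and 28.7 CPM in Mock and 56.4, 41.1 and 41.6 CPM in RGF1, with 0.67 ± 0.29 and an edgeR adjusted p of 0.601. RPA1A (AT2G06510), a subunit of the single-strand binding protein, had 0.84 ± 0.39 and an edgeR adjusted p of 0.646. All RGF1 libraries of POLA3 and PSF1 lay above the Mock libraries, as in 4 of the 32 genes (12.5%; 7.30% of all tested genes).

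Of 4 further E2F and DP genes edgeR called 0, with 0 at an unadjusted p below 0.05, and DESeq2 and voom called 0. DPA (AT5G02470), an E2F dimer partner, had a log2 fold change of 0.65, DEL3 (AT3G01330) -0.54 and DPB (AT5G03415) 0.25. Of 16 H2A and H2B genes 14 were tested, with 0 called and 0 at an unadjusted p below 0.05 by edgeR, DESeq2 or voom, and a median of 0.03. The smallest p values there belonged to HTB2, HTA10 and AT3G53650, with log2 fold changes of 0.29, -0.23 and 0.54. The 3 H3.3 genes had a median of -0.02, from -0.04 to 0.16, and 7 further histone chaperones one of 0.02. Among those chaperones NRP1 stood at -0.50, NAP1;3 at -0.23 and SGA2 at 0.39, with 0 called by edgeR, DESeq2 or voom. In the main edgeR fit 0 had an unadjusted p below 0.05. With the replicate block 1 of the 7 did (12.6% of all tested genes), and the smallest edgeR adjusted p was 0.302, that of NRP1.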

How the data were processed

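RNA-seq counts per gene, 1 table per library, were used as the authors deposited them, whole numbers without normalization. Per the submitters' processing notes, TopHat2 2.1.1, HTSeq and DESeq2 were used with the build TAIR10, and no role is stated for each. Not given in the sources used here were the annotation release, strand use, read length and the handling of reads that match several places. Positions, exon lengths, promoters and coding sequences came from the TAIR10.1 RefSeq genome and annotation, which matched 47 of the 47 genes. The tables held 0 rows that name no gene.

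Samples were grouped by the treatment in the labels, 3 Mock and 3 RGF1. The main test was edgeR 4.0.16 in R 4.3.3 (TMM, default filterByExpr, quasi-likelihood F test, Benjamini-Hochberg over 16737 genes, adjusted p below 0.05). The F statistic gave the standard errors and 95% intervals. On simulated counts for 16388 genes the test recovered 14.6% of 2-fold, 59.2% of 4-fold, 75.0% of 8-fold and 95.8% of 16-fold changes, with 6 false among 124 calls. Alternatives were DESeq2 1.42.0, limma 3.58.1 voom, other scalings and filters, a replicate block, and each library left out. Deviations from the group means correlated between libraries of equal number at 0.177, 0.214 and 0.299 (other pairs -0.166 to -0.0433). The numbers were therefore taken to pair the samples, from the data and not from the labels. The main fit, its intervals and every p-value given without mention of the block leave this pairing out. The intervals of log2 fold changes rest on the spread between the libraries. The floors of 3 counts cover counting error only, since no molecular identifiers are described.

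The 47 genes, the other lists, the markers and the words searched were chosen with earlier results of these data known. Values per library are given for genes with an unadjusted p below 0.05, the 3 largest differences and the highest and lowest gene of each class per kb, and others were added after their values were seen. Of the other lists, up to 3 genes with the smallest p are named.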

Additional observations from a re-analysis of the deposited data

How the results depend on the processing

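None of the 47 genes was called in any alternative, and their smallest adjusted p in any fit was 0.156. Counts over all genes moved: in place of 78 higher and 5 lower, there were 176 and 46 without the low-count filter, 219 and 72 with DESeq2, and 208 and 94 with the replicate block, which changed no call among the 47 genes. With 1 library left out they ran from 39 to 113 and from 1 to 5, with 49 and 1 without Mock replicate 2, 39 and 1 without RGF1 replicate 1, and 64 and 3 without RGF1 replicate 3. Genes whose groups did not overlap numbered 5 higher and 1 lower, and 2 lower with total-count scaling. A different count, tried in its place as a replicate block, is that of genes with 1 sign in all 3 same-number pairs, whose groups may overlap: 9 higher and 7 lower. With 1 library left out, genes without overlap ran from 6 to 11 higher and from 1 to 5 lower, with 11 higher without RGF1 replicate 1 and 5, 3, 4 and 2 lower without Mock replicates 1 and 2 and RGF1 replicates 2 and 3. At unchanged scaling, leaving out a library can only keep or add such genes. These larger counts therefore say nothing about the genes, and no share over all tested genes is given for them. In the 100 bases before the start the octamer was found in 2 genes in place of 5. The order of the 10 class levels was the same with the longest transcript. Signs turned in 10 of 363 values: with total counts in PCNA2 (-0.013), RNR2A (-0.0096) and HTR1 (-0.0019), with voom in ORC3 (-0.13), POLD1 (0.064), E2FB (0.072) and E2FC (0.086), and with the replicate block in ORC3 (-0.051), POLD1 (0.0079) and E2FC (0.020). With 1 library left out 46 of 282 values turned, in 22 genes whose own values were at most 0.269 in size: AT1G07820 (-0.14 to 0.16), AT2G28740 (-0.32 to 0.13), AT3G45930 (-0.22 to 0.24), AT3G53730 (-0.27 to 0.022), CDC45 (-0.18 to 0.49), E2FB (-0.36 to 0.28), E2FC (-0.46 to 0.52), FAS1 (-0.035 to 0.42), HTR1 (-0.16 to 0.13), HTR13 (-0.20 to 0.54), MCM5 (-0.36 to 0.056), MSI1 (-0.089 to 0.59), ORC1B (-0.25 to 0.043), ORC3 (-0.32 to 0.41), ORC4 (-0.37 to 0.13), ORC5 (-0.70 to 0.060), ORC6 (-0.39 to 0.18), PCNA2 (-0.13 to 0.18), POL2A (-4.7e-05 to 0.34), POLD1 (-0.29 to 0.21), RBR1 (-0.36 to 0.067) and RNR2A (-0.19 to 0.36). Apart from the added genes without overlap when a library was left out, the cause of these moves was not tested. Depth limits the genes with few counts, such as ORC2 (113 in Mock, 206 in RGF1), CDC6B (118 and 81), FAS2 (210 and 287) and RNR2A (273 and 239).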
